A study of Mus musculus with 8 samples.

Results

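Genes that mark blood, vessel, nerve, pigment and muscle cells were followed across arrays of sorted mouse dermal fibroblasts, to see whether RNA of these other lineages was present in either diet. The list holds 34 genes, of which 33 have a probe set that names only them, out of 17097 genes measured in this way. They are 14 leukocyte, 7 endothelial, 3 pericyte, 5 glial or melanocyte and 4 muscle genes, and the pericyte gene Cspg4 had no such probe set and was not analysed here. A gene with several probe sets was represented by the brightest over the arrays compared.

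The cells came from female mice given a high fat diet (HFD) or a control diet, labelled normal diet (ND), for 6 months from the age of 2 months. Dermis freed of the subdermis was digested with collagenase, and 10000 cells per sample were sorted that carried Pdgfra and CD34 and lacked CD45, CD31, CD117, EpCam and CD24. Their RNA went through 20 cycles of amplification, with 1 array for each of 4 specimens per diet, and no strain is given in the labels. The labels exclude ND 4 by quality control, so ND 1 to 3 (n = 3) were compared with HFD 1 to 4 (n = 4), and ND 4 is given beside them.

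A sort removes cells by proteins on their surface, and each lineage also carries RNA that the gate does not read. Leukocytes, which descend from blood stem cells, are defined by the phosphatase CD45, endothelial cells line vessels and carry CD31, and pericytes wrap the small vessels. Schwann cells, the glia of skin nerves, and melanocytes both arise from the neural crest, while striated muscle fibres lie beneath the dermis in a thin sheet in mice. The proteins gated against are those of leukocytes, mast cells, endothelium and epithelium, and CD117 is also carried by melanocytes. No gate was set against a protein of glia, pericytes or muscle, and for these the sort rested on the required Pdgfra and CD34.

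All levels are the deposited log2 values, which order the arrays within a probe set but do not give relative amounts of different genes, because probe sets differ in affinity. The files give no detection calls. Signal of genes with little RNA was therefore described by 79 odorant, vomeronasal and trace amine receptor genes, which skin cells mostly do not express. Their 5th percentile was at 3.93 to 3.97 and their 95th percentile at 5.96 to 6.16 over the 7 arrays. A gene is called above the reference where it exceeds the array's 95th percentile on all 7 arrays. A change in a marker can come from fewer cells of a type or from less RNA per cell, and these cannot be told apart in sorted bulk RNA.

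Fibroblast genes were present on every array. Of 12 fibroblast markers, 11 (91.7%) were above the reference, against 58.5% of all genes. They include Col1a1 (13.14 to 13.26), Col3a1 (12.97 to 13.18), Dcn (13.37 to 13.48), Dpt (12.04 to 12.22), Thy1 (11.83 to 12.04), Cd248 (11.25 to 11.56) and Pdgfrb (9.95 to 10.40). Lum (12.21 to 12.68), Col1a2 (8.70 to 9.07) and Pi16 (8.34 to 8.97) were also among them. Lum, a collagen-binding proteoglycan, fell in HFD (−0.34, SE 0.07, limma adjusted p = 0.0358), and ND 4 was at 12.63. This call was lost with the 3′ minus 5′ covariate described below, under which 0 genes passed. Of all genes, 914 passed in the main comparison and 6 with ND 4 included. Cd34, a gate protein, was at 12.07, 12.11 and 12.07 in ND 1 to 3 and 12.06, 12.17, 12.09 and 12.07 in HFD 1 to 4. Pdgfra, also in the gate, has a single named probe set that was dim, and it was above the reference on 4 of 7 arrays. It was at 5.79 to 6.01 in ND 1 to 3, 6.15 in ND 4 and 6.02 to 6.49 in HFD. ND 1 to 3 and HFD did not overlap, as in 17.9% of all genes, while ND 4 lay within the HFD range. The difference was 0.34 (SE 0.11, limma adjusted p = 0.103).

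Of the 33 lineage markers, 14 (42.4%) were above the reference on all 7 arrays, against 58.5% of all genes, 3 were above it on some arrays and 16 on 0 arrays. The 16 are Ptprc, Tyrobp, Lyz2, C1qa, Cd3e, Kit, Cpa3, Cdh5, Emcn, Cldn5, Vwf, Mcam, S100b, Dct, Acta1 and Myh4. The 14 are Fcer1g, Cd68, Cd14, Csf1r, C1qc, Cd79a, Pecam1, Kdr, Tek, Des, Pmp22, Sox10, Pmel and Pvalb. The count was 14 with ND 4 included as well, and it fell to 7 when the median gene of each array (6.72 to 6.79) was used in place of the reference. The median SD within diets was 0.08 over the 33 markers and 0.11 over the 14, where it was 0.11 over all genes, and the 2 markers that spanned 1 log2 or more over the 7 arrays were Tek and Des. Between diets the signal of 1 marker rose in HFD, Tyrobp, inside the reference range, 1 fell, Pmp22, and 31 did not pass, where 5.35% of all genes passed (2.62% higher and 2.73% lower in HFD).

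**Figure D1:**
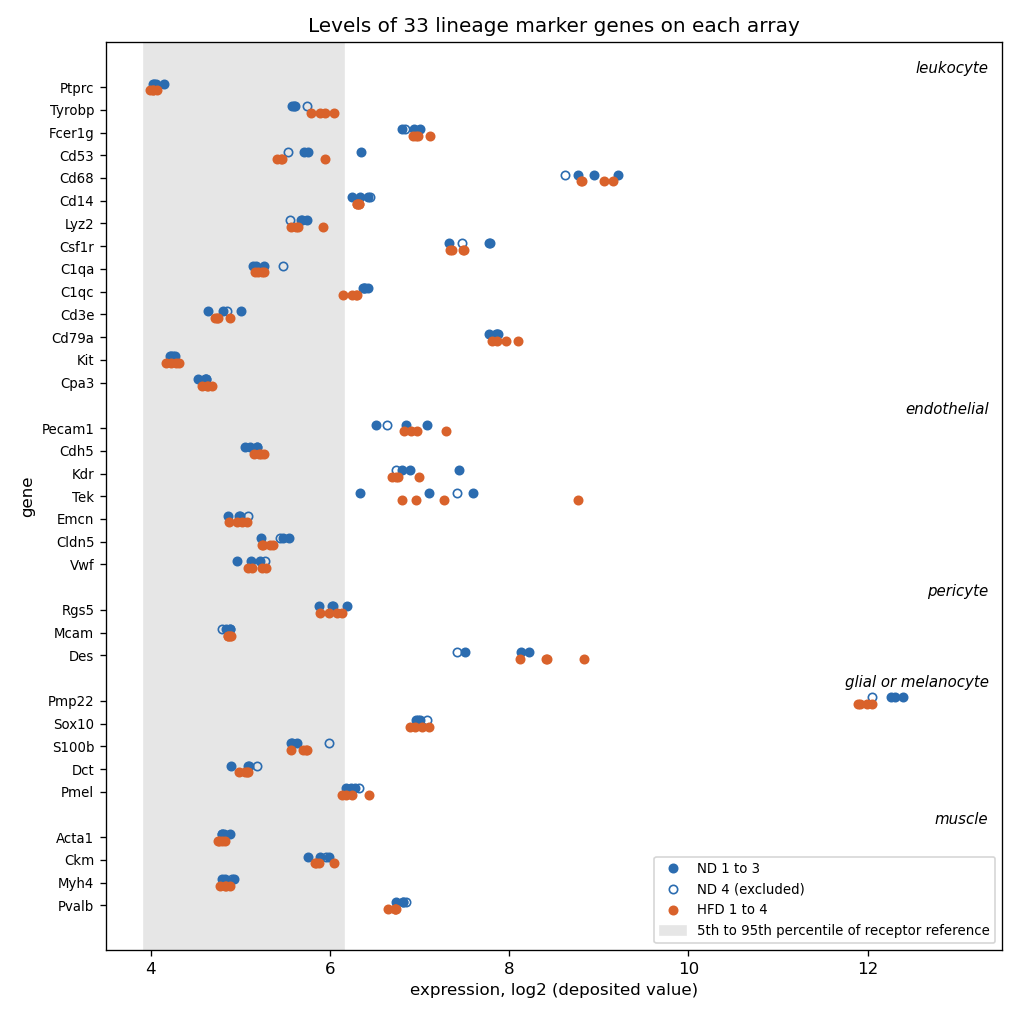
Expression of 33 lineage marker genes on each array (log2, horizontal), grouped by lineage, with blue points for ND and orange points for HFD and the grey band for the 5th to 95th percentile of the receptor reference. The 16 genes from Ptprc to Myh4 that are never above the reference lie inside the band, while Pmp22 lies near 12 on all arrays.

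The 3′ minus 5′ signal of control genes differed between ND 1 to 3 and HFD. The signal of the 3′ control probe sets of Gapdh and Actb minus that of their 5′ ones, averaged over both genes, was −0.29, −0.335 and −0.18 in ND 1 to 3, −0.37 in ND 4 and −0.40, −0.44, −0.375 and −0.44 in HFD 1 to 4. Every value was negative, so the 5′ signal was the brighter on each array, and HFD was more negative than ND 1 to 3. ND 1 to 3 did not overlap HFD, and ND 4 was close to HFD 3. Whether this measure reflects RNA integrity or the amplification was not tested. With this difference as a covariate in limma 0 genes passed (604 at an unadjusted p under 0.05). Because the covariate itself separates ND 1 to 3 from HFD, its part and that of diet cannot be told apart in this fit. The SE rose in it, from 0.07 to 0.13 for Tyrobp and from 0.06 to 0.11 for Pmp22. Lost calls and changed signs under it therefore do not show whether diet or what the 3′ minus 5′ signal reflects made a difference.

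Ptprc and Kit, whose proteins were gated against, were inside the reference range on every array. Ptprc, which encodes CD45, was at 4.06, 4.02 and 4.15 in ND 1 to 3, 4.04 in ND 4 and 4.07, 4.02, 3.99 and 4.03 in HFD 1 to 4. Kit, the stem cell factor receptor CD117 of mast cells and melanocytes, was at 4.25, 4.23 and 4.27 in ND 1 to 3, 4.22 in ND 4 and 4.31, 4.17, 4.23 and 4.28 in HFD. The diets overlapped in both. The 95% intervals of the log2 difference, HFD minus ND, were −0.13 to 0.04 for Ptprc and −0.09 to 0.09 for Kit. At these levels the intervals describe signal that cannot be told apart from background. Kit lies between Pdgfra and Kdr on chromosome 5 in the RefSeq table of GRCm38.p6, so a receptor selected for and a receptor selected against are neighbours.

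The probe set of Pecam1, which encodes CD31, was at 7.08, 6.85 and 6.51 in ND 1 to 3, 6.64 in ND 4 and 6.97, 6.83, 7.30 and 6.91 in HFD 1 to 4, above the reference on every array in both diets. The highest array was HFD 3 and the lowest ND 3, and the diets overlapped, with a log2 difference of 0.19 (SE 0.15, limma adjusted p = 0.507, 95% interval −0.14 to 0.51). Without ND 3 the difference was 0.04 and without HFD 3 it was 0.09. The epithelial genes of the gate are Cd24a and Epcam. Cd24a ranged from 5.49 to 6.35, with HFD 4 highest and above the reference on that array alone, and Epcam ranged from 5.11 to 5.35.

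Among leukocyte genes, the probe set signal of the adaptor Tyrobp rose in HFD, at a level that cannot be told apart from background. Tyrobp (also DAP12) carries the activating signal of receptors on macrophages and natural killer cells. Its only probe set was at 5.61, 5.58 and 5.60 in ND 1 to 3 and 5.94, 5.79, 6.04 and 5.89 in HFD 1 to 4. All HFD arrays lay above all ND arrays, and ND 4, at 5.74, lay between them. The mean went from 5.60 ± 0.02 (SD, n = 3) to 5.92 ± 0.10 (SD, n = 4), a log2 change of 0.32 (SE 0.07, limma adjusted p = 0.0352). These levels are inside the reference range on all 8 arrays. The call was lost with ND 4 included (0.28, adjusted p = 0.15), without ND 1 (adjusted p = 0.0577), ND 2 (0.0711), ND 3 (0.129), HFD 3 (0.08) or HFD 4 (0.0912). It was also lost with a block on specimen number in limma (0.33, adjusted p = 0.194). With the 3′ minus 5′ covariate the change was 0.41 (SE 0.13, adjusted p = 0.999), and with the mean of 17 keratinocyte markers as a covariate 0.37 (adjusted p = 0.113).

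Fcer1g, the gamma chain shared by Fc receptors and an adaptor of the same kind as Tyrobp, did not pass the threshold. Fcer1g was at 6.80, 7.01 and 6.94 in ND 1 to 3, 6.84 in ND 4 and 6.93, 6.96, 7.12 and 6.98 in HFD 1 to 4. The diets overlapped, and the difference was 0.08 (SE 0.09, limma adjusted p = 0.652, 95% interval −0.11 to 0.27). Whether the difference between the responses of Tyrobp and Fcer1g exceeds its error was not tested. Cd53, a tetraspanin of most leukocytes, was at 5.71, 5.76 and 6.35 in ND 1 to 3, 5.53 in ND 4 and 5.94, 5.41, 5.46 and 5.45 in HFD 1 to 4. ND 3 and HFD 1 were each apart from the rest of their diet, and the difference of −0.38 (SE 0.17, limma adjusted p = 0.222) became −0.17 without ND 3 and 0.19 with the 3′ minus 5′ covariate. The dimmer probe set of Cd53 had a mean of 3.99 and differed by −0.01.

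Of the macrophage genes Csf1r, C1qc, C1qa, Cd68, Cd14 and Lyz2, 0 passed, where 5.35% of all genes passed. Their differences lay between −0.21 and 0.02. Csf1r, the receptor for the growth factor that macrophages need, was at 7.33, 7.78 and 7.79 in ND 1 to 3, 7.47 in ND 4 and 7.36, 7.34, 7.49 and 7.50 in HFD 1 to 4. ND 2 and ND 3 were higher than the others and ND 1 was the lowest of all, so the diets overlapped (difference −0.21, SE 0.12, limma adjusted p = 0.349). C1qc, a chain of the first complement component, was at 6.37, 6.38 and 6.42 in ND 1 to 3, 6.39 in ND 4 and 6.25, 6.15, 6.30 and 6.29 in HFD 1 to 4. All 4 ND arrays lay above all HFD arrays, but the difference was small and did not pass (−0.14, SE 0.07, limma adjusted p = 0.263). C1qa, its neighbour on chromosome 4 and a chain of the same protein, was inside the reference range at 5.14 to 5.26 on the 7 arrays, 5.48 on ND 4, with a difference of 0.02.

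The lysosomal protein gene Cd68, a usual macrophage marker that other cell types can express, was at 9.21, 8.77 and 8.95 in ND 1 to 3, 8.62 in ND 4 and 8.81, 9.16, 9.06 and 8.80 in HFD 1 to 4. The diets overlapped fully, with a difference of −0.02 (SE 0.13, 95% interval −0.31 to 0.27). Cd14, a receptor for bacterial lipopolysaccharide, was at 6.25 to 6.42 in ND 1 to 3 and 6.30 to 6.32 in HFD (difference −0.02, SE 0.07). Lyz2, the lysozyme of myeloid cells, is read by 1 probe set of a class that can match related sequences, and it stayed between 5.57 and 5.92, inside the reference range (difference −0.02, SE 0.08).

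Lymphocyte and mast cell genes showed no diet difference past the threshold. Cd3e, a subunit of the T cell receptor complex, ranged from 4.64 to 5.01 in ND 1 to 3 and from 4.72 to 4.88 in HFD. Cpa3, a protease of mast cell granules, ranged from 4.53 to 4.68 over the 7 arrays. Both were inside the reference range. Cd79a, a signalling chain of the B cell receptor, was at 7.88, 7.86 and 7.77 in ND 1 to 3, 7.85 in ND 4 and 7.81, 8.10, 7.96 and 7.86 in HFD 1 to 4. Its probe set was thus above the reference on all arrays, with diets that overlapped (difference 0.10, SE 0.09).

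Of the 7 endothelial markers 3 (42.9%) were above the reference, against 58.5% of all genes, and 4 were inside its range on every array. Cdh5, the cadherin of endothelial junctions, was at 5.05 to 5.19 in ND 1 to 3 and 5.15 to 5.26 in HFD. The capillary and venous glycoprotein gene Emcn was at 4.86 to 5.07 over the 7 arrays, the tight junction gene Cldn5 at 5.23 to 5.54, and Vwf, the clotting factor that endothelium stores, at 4.96 to 5.29. The changes of these 4 genes lay between −0.12 and 0.10. The receptors Kdr and Tek, which bind vascular endothelial growth factor and angiopoietins, were above the reference together with Pecam1. In the diet test 0 of the 7 endothelial genes passed, where 5.35% of all genes passed.

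Kdr was at 6.89, 6.80 and 7.44 in ND 1 to 3, 6.74 in ND 4 and 6.99, 6.74, 6.69 and 6.76 in HFD 1 to 4. ND 3 was higher than all others, and the difference of −0.25 (SE 0.15, limma adjusted p = 0.366) was −0.05 without it and 0.26 with the 3′ minus 5′ covariate. Pecam1 was lowest on ND 3, so the array with the most Kdr signal had the least Pecam1 signal of the 7.

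Tek varied more than any other marker. It was at 7.60, 6.33 and 7.10 in ND 1 to 3, 7.42 in ND 4 and 6.80, 8.77, 7.27 and 6.96 in HFD 1 to 4. HFD 2 was 2.44 log2 above ND 2, the lowest array, and the spread within diets (SD 0.81) was at the 99.9th percentile of all genes. The difference between diets was 0.44 (SE 0.44, limma adjusted p = 0.621, 95% interval −0.53 to 1.41), and without HFD 2 the diets had equal means, with a difference of 0.00. The other 6 endothelial genes did not share this pattern, since their mean was 5.69 on HFD 2, the lowest of the 7 arrays, and 5.73 on ND 2.

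Keratinocyte markers were highest and lowest on the same arrays as Tek. The mean of 17 keratinocyte genes was 6.69, 6.31 and 6.49 in ND 1 to 3, 6.99 in ND 4 and 6.35, 7.51, 7.0 and 7.04 in HFD 1 to 4, with HFD 2 highest and ND 2 lowest. Of these genes 7 (41.2%) were above the reference, against 58.5% of all genes. All 17 differences were positive, with a median of 0.27, where 9615 of all 17097 genes had a positive difference. Of the 17, 0 passed the threshold, where 5.35% of all genes passed. At an unadjusted limma p under 0.05 there were 3, against 22.1% of all genes. Dsp, which anchors keratins at desmosomes, ranged from 6.90 in ND 2 to 10.92 in HFD 2, Perp from 5.47 to 9.25, Krt1 from 5.44 to 8.38 and Krt10 from 8.59 to 10.98. With the keratinocyte mean as a covariate the Tek difference was −0.39 (SE 0.31). The part of keratinocyte RNA in the other markers' values was not tested beyond that covariate.

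Of the 3 pericyte genes 0 passed, where 5.35% of all genes passed. Of the 3, 1 (33.3%), Des, was above the reference on every array, against 58.5% of all genes. Rgs5, a G protein regulator that marks pericytes, was at 5.88 to 6.19 in ND 1 to 3 and 5.89 to 6.14 in HFD on its brightest probe set, above the reference on 3 of 7 arrays. That probe set is of a class that can match related sequences, and it differed by −0.01. The other 3 probe sets of Rgs5 had means of 4.33 to 4.57, inside the reference range. They differed by −0.06, −0.16 and −0.10 (limma adjusted p = 0.656, 0.203 and 0.113). Mcam, the adhesion molecule CD146, was at 4.84 to 4.90 on the 7 arrays and 4.80 on ND 4, with an SD within diets of 0.02.

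Des, the intermediate filament of muscle and of pericytes, was the highest of the changes that did not pass. It was at 8.13, 8.22 and 7.51 in ND 1 to 3, 7.42 in ND 4 and 8.41, 8.83, 8.42 and 8.12 in HFD 1 to 4. Of the HFD arrays 3 lay above all ND arrays, HFD 4 lay below ND 1 and ND 2, and ND 3 and ND 4 were the lowest. The means were 7.95 ± 0.39 (SD, n = 3) and 8.44 ± 0.29 (SD, n = 4), a difference of 0.49 (SE 0.19, limma adjusted p = 0.168), which became 0.27 (adjusted p = 0.528) without ND 3 and 0.36 without HFD 2. With the 3′ minus 5′ covariate it was −0.10. The dimmer probe set, with a mean of 7.11, differed in the same direction by 0.23 (SE 0.11).

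Among glial and melanocyte genes, Pmp22 fell in HFD. Pmp22 encodes a membrane protein of compact myelin and was first isolated from fibroblasts in growth arrest. Its only probe set was at 12.26, 12.31 and 12.39 in ND 1 to 3 and 12.05, 11.99, 11.91 and 11.89 in HFD 1 to 4. All HFD arrays lay below all ND arrays compared, while ND 4, at 12.05, equalled HFD 1. The mean went from 12.32 ± 0.07 (SD, n = 3) to 11.96 ± 0.07 (SD, n = 4), a log2 change of −0.36 (SE 0.06, limma adjusted p = 0.0224), or 1.28-fold lower. The call was lost with ND 4 included (−0.29, adjusted p = 0.159) and when ND 3, HFD 3 or HFD 4 was left out (adjusted p = 0.0898, 0.068 and 0.071 in that order). It was also lost with a block on specimen number in limma (−0.34, adjusted p = 0.194). With the 3′ minus 5′ covariate the change was −0.28 (SE 0.11, adjusted p = 0.999). Fitting the keratinocyte mean as a covariate gave −0.32 (limma adjusted p = 0.116).

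The other 4 glial and melanocyte genes did not pass the diet test, and their differences from the change of Pmp22 were not tested. Sox10, a transcription factor of neural crest cells, was at 6.96, 6.98 and 7.01 in ND 1 to 3, 7.08 in ND 4 and 6.89, 7.11, 6.95 and 7.03 in HFD 1 to 4. The diets overlapped, with a difference of 0.01 (SE 0.08, limma adjusted p = 0.957), and the other 2 probe sets of Sox10 had means of 6.12 and 5.07. S100b, a calcium-binding protein of Schwann cells, was at 5.57 to 5.63 in ND 1 to 3, 5.99 in ND 4 and 5.57 to 5.74 in HFD. These levels are inside the reference range on every array. The difference was 0.09 (SE 0.06), and the dimmer probe set, with a mean of 4.77, differed the other way by −0.14 (SE 0.1). The melanin enzyme gene Dct was at 4.90 to 5.10 on the 7 arrays, inside the reference range, and Pmel, which forms the fibrils of melanosomes, at 6.14 to 6.44 with a difference of 0.02 (SE 0.08).

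Muscle genes did not differ between diets past the threshold. Acta1, skeletal muscle actin, was at 4.89, 4.79 and 4.82 in ND 1 to 3, 4.79 in ND 4 and 4.76, 4.83, 4.75 and 4.79 in HFD 1 to 4. Myh4, a fast myosin heavy chain, was at 4.80 to 4.93 in ND 1 to 3 and 4.77 to 4.88 in HFD. The creatine kinase gene Ckm was at 5.75 to 5.99 and 5.83 to 6.04, above the reference on 1 array. Pvalb, the calcium buffer of fast fibres, was at 6.74, 6.81 and 6.81 in ND 1 to 3, 6.85 in ND 4 and 6.73, 6.73, 6.74 and 6.65 in HFD 1 to 4, above the reference throughout. The 4 changes lay between −0.07 and 0.02, with 95% intervals inside −0.23 to 0.20. Acta1 and Myh4 were above the reference on 0 arrays and Ckm on 1. Their intervals therefore describe signal that mostly cannot be told apart from background, and do not bound a change in muscle RNA.

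The median change of the 33 markers was 0.00, against 0.02 over all genes, and 17 were positive. At an unadjusted p under 0.05 there were 4 markers, Tyrobp, Pmp22, Des and Cd53, against 22.1% of all genes. ND and HFD arrays did not overlap in 3 markers (9.09%), Tyrobp, C1qc and Pmp22, against 17.9% of all genes. The 3 lists without a call were the endothelial, pericyte and muscle genes, where 5.35% of all genes passed.

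**Figure D2:**
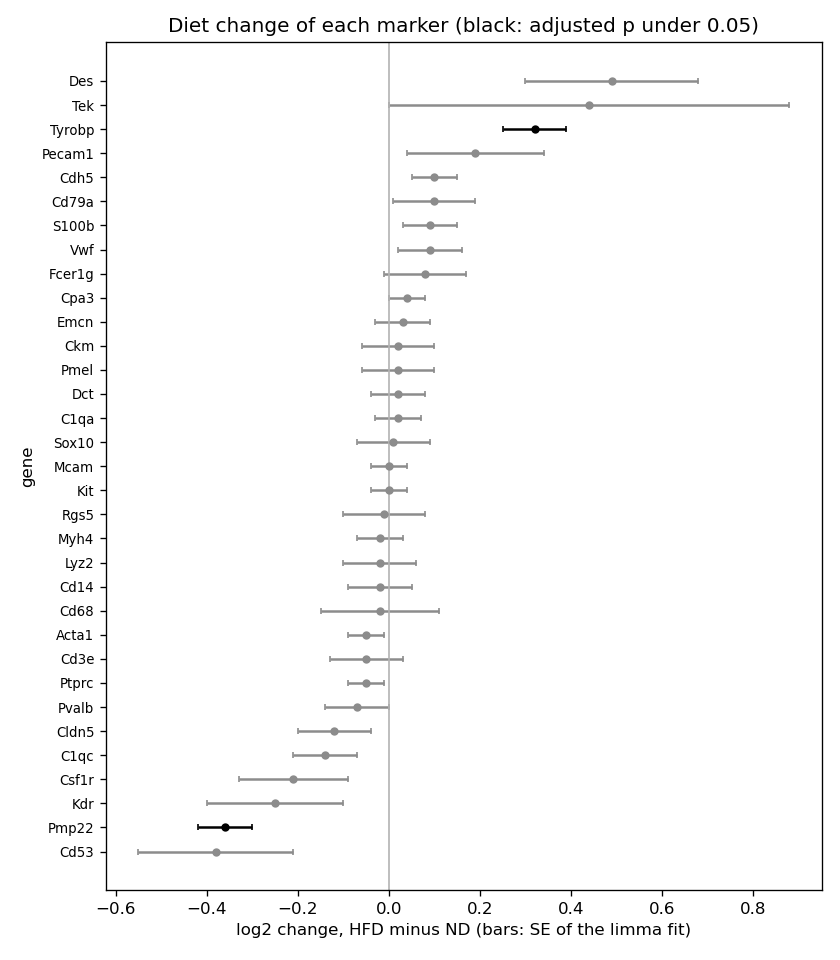
Log2 change of each marker, HFD minus ND, with the SE of the limma fit as bars and black for the 2 genes past an adjusted p of 0.05. Tyrobp (0.32) and Pmp22 (−0.36) have short bars, while Tek (0.44) has the longest.

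**Figure D3:**
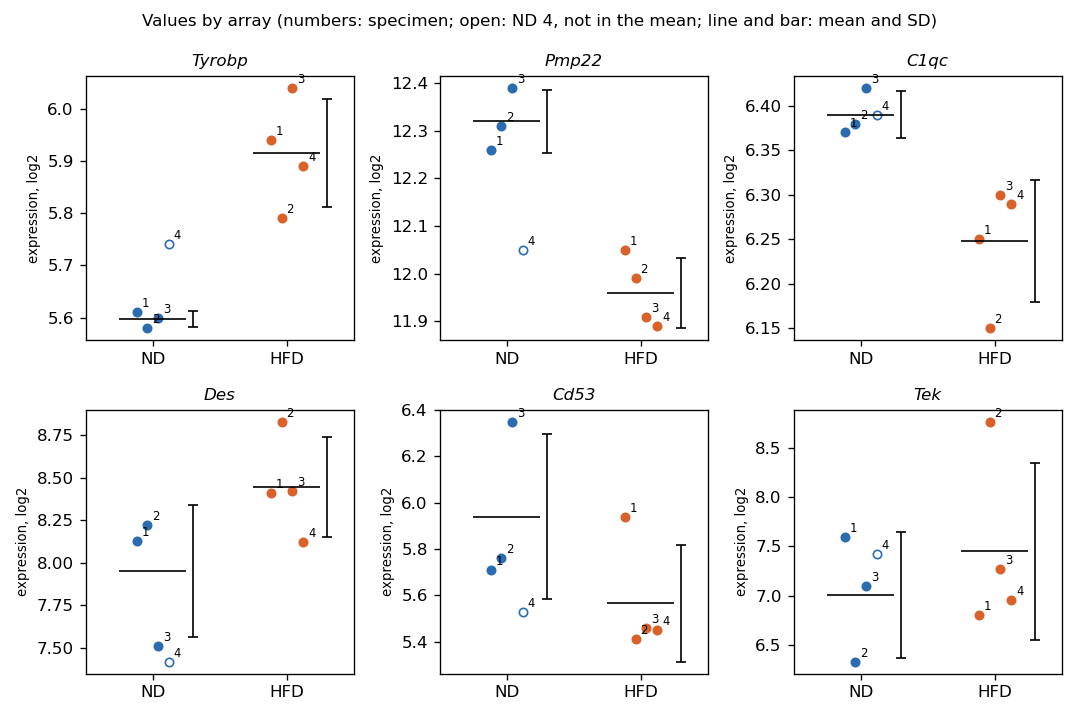
Expression (log2, vertical) of 6 markers in ND and HFD, with each array numbered by specimen, ND 4 as an open point, and the mean and SD of the arrays compared as line and bar. Tyrobp, Pmp22 and C1qc separate ND 1 to 3 from HFD 1 to 4, while the diets overlap in Des, Cd53 and Tek, with ND 3 highest in Cd53 and HFD 2 highest in Tek.

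The lineage means spanned 0.10 to 0.42 log2 over the 7 arrays. The mean of all 17097 genes spanned 0.04, but a mean of few genes varies more, so these spans are not comparable. The mean of the 14 leukocyte genes was 5.96, 6.02 and 6.07 in ND 1 to 3, 5.97 in ND 4 and 6.01, 5.97, 6.03 and 5.97 in HFD 1 to 4. The 4 muscle genes had a mean of 5.54 to 5.63 in ND 1 to 3 and 5.52 to 5.59 in HFD, and the 5 glial and melanocyte genes one of 7.20 to 7.25 and 7.15 to 7.25. The endothelial mean spanned 0.32 log2 over the 7 arrays with Tek and 0.10 without it. The pericyte mean spanned 0.42, from 6.14 in ND 3 to 6.56 in HFD 2, following Des. The keratinocyte mean spanned 1.20 log2, and that of the fibroblast markers 0.09.

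**Figure D4:**
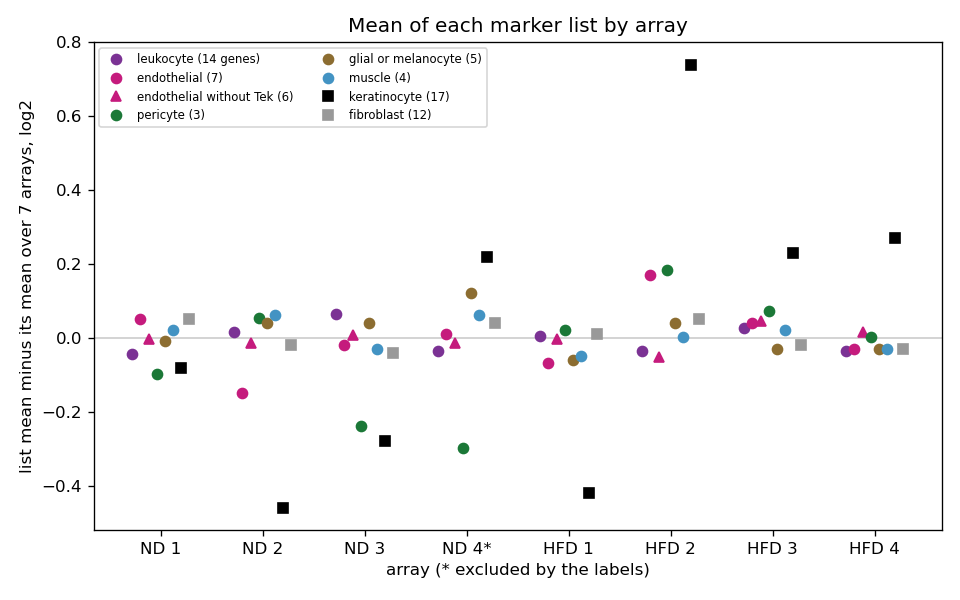
Mean log2 level of each marker list on each array, minus its mean over the 7 arrays compared. Keratinocyte genes (black squares) span 1.20 log2 and are highest on HFD 2, while the leukocyte and muscle genes span 0.10 and 0.11.

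Further markers of the same lineages gave 0 calls in limma at an adjusted p under 0.05, where 5.35% of all genes passed. They were 21 leukocyte, 16 endothelial, 8 mural, 6 glial, 7 melanocyte and 15 muscle genes, with medians of 0.00, −0.02, 0.09, −0.05, 0.07 and 0.00 respectively. At an unadjusted p under 0.05 there were 3 of them, Ngfr, Mitf and Eno3, against 22.1% of all genes. In the leukocyte list 6 were above the reference, among them the antigen presentation genes H2-Aa (8.56 to 8.66 in ND 1 to 3, 8.68 to 8.95 in HFD, difference 0.21, limma adjusted p = 0.231) and Cd74 (difference −0.13, limma adjusted p = 0.727), and the mast cell chymase Cma1 (6.82 to 6.88 and 6.95 to 7.17, adjusted p = 0.243). ND 1 to 3 and HFD arrays did not overlap in 2 of the 21 leukocyte genes (9.52%, H2-Aa and Cma1), 2 of the 8 mural genes (25.0%, Cnn1 and Notch3), 2 of the 6 glial genes (33.3%, Ngfr and Mbp), 1 of the 15 muscle genes (6.67%, Eno3) and 0 of the endothelial and melanocyte genes, against 17.9% of all genes.

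In the endothelial list 5 were above the reference, with Ramp2, a receptor partner of adrenomedullin signalling, at 12.82 to 13.01 and the TGF-beta coreceptor Eng at 8.65 to 9.14 (difference −0.23, limma adjusted p = 0.227), while Robo4 was at 4.44 to 4.64. In the mural list 4 were above it, including Pdgfrb, which fibroblasts share, and Ndufa4l2 (9.60 to 10.31, difference −0.01), whereas the smooth muscle gene Cnn1 (5.37 to 5.55) and the receptor Notch3 (5.25 to 5.44) were not.

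In the glial list Ngfr, the low-affinity neurotrophin receptor, was at 7.13, 7.18 and 6.99 in ND 1 to 3 and 7.31, 7.27, 7.35 and 7.50 in HFD 1 to 4 (difference 0.26, SE 0.09, limma adjusted p = 0.123), and the myelin gene Mbp was at 7.05 to 7.12 and 6.92 to 7.02 (difference −0.10, adjusted p = 0.464). In the melanocyte list only Mitf was above the reference, a transcription factor gene that many cell types use, at 9.30, 9.12 and 9.47 in ND 1 to 3, 8.78 in ND 4 and 9.15, 8.71, 8.43 and 8.41 in HFD (difference −0.62, SE 0.17, limma adjusted p = 0.0638). The pigment cell genes Oca2 (4.94 to 5.26) and Slc45a2 (5.28 to 5.75) were inside the reference range. In the muscle list Eno3 (6.47 to 6.99, difference 0.24, adjusted p = 0.222), Mb (6.91 to 7.21) and Atp2a1 (6.89 to 7.14) were above it and Pax7 (4.67 to 5.06) was not.

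Markers of red cells and adipocytes were measured beside these. Of 3 erythroid genes 0 passed, where 5.35% of all genes passed. The haemoglobin gene Hba-a1 was at 8.22 to 8.48 in ND 1 to 3 and 8.18 to 8.30 in HFD, and Slc4a1 at 6.57 to 6.89. Both were above the reference, and Alas2, at 6.02 to 6.31, was above it on 6 of 7 arrays. Of 5 adipocyte genes 0 passed and 1, Retn, at 6.21 to 6.47, was above the reference. Fabp4, the fatty acid carrier of adipocytes, was at 5.0 to 5.16 and Car3 at 5.56 to 5.85.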

How the data were processed

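RMA and the affy package are named for this table, per the submitters' processing notes, without versions or settings. The authors deposited log2 values of 45141 probe sets for 8 arrays, and no scaling was added. GEO's platform annotation names 28898 probe sets with 1 gene symbol and 551 with several, and 28689 symbols were updated by Entrez identifier. The brightest probe set of each gene over the 7 arrays compared gave 17097 genes.

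Diets were compared with lmFit and eBayes (trend) of limma 3.58.1 in R 4.3.3, with 10.3 total degrees of freedom (median) and Benjamini-Hochberg adjustment across the 17097 genes, called at 0.05. Adjusted p-values and 95% intervals are from this fit. Its calls were tried on simulated data in which genes vary independently, unlike on real arrays, and the intervals were not tested. Every specimen counts as 1 sample, and p-values measure only the spread between these samples, which may be technical. The number of arrays limits the precision. No pair of arrays looked like a duplicate (SD of their differences 0.165 or more).

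The members and lists were chosen with earlier results of these data known. All members, gate genes and fibroblast markers are named, and of each other list the 2 genes of smallest p and the 2 of highest mean. Alternatives were the 8 arrays, leaving out each array, a replicate block, quantile and median scaling, eBayes without trend or robust, other rules for probe sets, a filter on dim genes, and covariates for 3′ minus 5′ signal and keratinocyte markers. Figures were drawn with matplotlib 3.10.9.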

Additional observations from a re-analysis of the deposited data

Results flagged for a closer look

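Within groups of 4 arrays, 3 markers had an array far from the other 3, among 66 gene and diet groups examined, ND 4 included, where chance flags about 1 in 20. Cd53 was at 5.94 in HFD 1, against 5.41 to 5.46 in the other HFD arrays. S100b was at 5.99 in ND 4, the array excluded by the labels, against 5.57 to 5.63 in ND 1 to 3. Pvalb was at 6.65 in HFD 4, against 6.73 to 6.74 in the other HFD arrays, a gap of under 0.1 log2.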

How the results depend on the processing

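The count of markers past the threshold, 2 in the comparison reported, was 0 with all 8 arrays (4 at an unadjusted p under 0.05 in limma), 0 with the replicate block on specimen number (3), 0 with the 3′ minus 5′ covariate (2), 0 with the keratinocyte covariate (2), 1 with the dimmer genes left out, where 10 markers were tested, and 0 to 2 when each array was left out. The count of all genes, 914, was 6, 1, 0 (604 at an unadjusted p under 0.05), 20 and 1387 in these settings, 400 with the mean of probe sets, 1374 with every probe set alone and 6 to 1072 without 1 array each.

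The change of Tyrobp was 0.28 with all 8 arrays, 0.33 with the block, 0.41 and 0.37 with the covariates and 0.28 to 0.36 without 1 array each, and that of Pmp22 was −0.29, −0.34, −0.28, −0.32 and −0.39 to −0.33, with the adjusted p from 0.0445 to 0.129 and from 0.0191 to 0.0898 without 1 array each. The direction of both held in every setting run, and the cause of the lost calls was not tested. With the 3′ minus 5′ covariate, which cannot be told apart from diet here, Cd53, Kdr and Des turned to 0.19, 0.26 and −0.10. Tek turned to −0.39 with the keratinocyte covariate and lay between 0.00 and 0.73 without 1 array each. Of the 31 other markers 0 passed in any of the settings run, and 22 of them changed sign in some. The 14 markers above the reference became 7 against the median gene and 10 against the 99th percentile of the reference. Specimen numbers were not used as a pairing in the main comparison. Same-numbered ND and HFD arrays deviated from their diet means with correlations of −0.182, −0.291 and −0.053, and differently numbered ones with −0.166 to 0.264. With so few arrays per diet these values cannot decide whether the numbers pair the arrays. Using only probe sets not of the x_at or s_at classes where possible, an alternative chosen after seeing the data, left 2 markers called.

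Levels inside the reference range cannot be told apart from background signal, since no detection calls were used.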
